A study of Mus musculus with 33 samples.

Results

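The comparison described here is the knockdown of hnRNP R in the somatodendritic compartment of cultured mouse motoneurons, that is, in their cell bodies and dendrites. In the authors' deposited table of this comparison, 37926 gene records held 1 FPKM value per group (a level scaled to gene length and sequencing depth). All records with at least 1 FPKM in either group were taken, which gave 13493 members. The knockdown group was labelled hnRNPR_sd (3 libraries) and the control group GFP_sd (4 libraries). Both were primary motoneurons of CD-1 mice in microfluidic chambers, where axons enter a separate compartment, and a PicoPure kit was used to isolate total RNA from each side. The treatment field of both groups reads none. The sources used here do not give how hnRNP R was knocked down, what GFP stood for in the controls or how many animals were pooled. Axonal libraries of the same knockdown and control, 7SK knockdown libraries of the somatodendritic side and hnRNP R iCLIP libraries of the series are set beside single genes below.

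HnRNP R belongs to the heterogeneous nuclear ribonucleoproteins, proteins that coat RNA from its synthesis onwards and take part in splicing, stability and transport. It binds the motoneuron disease protein SMN and the noncoding RNA 7SK, and is known in motoneurons for its part in axon growth and in the transport of beta-actin mRNA. 7SK itself is the scaffold of a nuclear particle that keeps the elongation kinase P-TEFb inactive.

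With 1 value per group no spread between libraries could be computed and read depth is unknown, so the precision of a value can be judged only from the authors' own test. The labels do not say that libraries were separate cultures, and the authors' p-values therefore measure only the spread between these libraries, which may be technical. The single locus Gm26924 held 38.6% of the summed FPKM in the knockdown and 36.8% in the control. Of 15 motoneuron marker records, 7 reached 1 FPKM. The defining genes Chat and Mnx1 were listed at 0 in both groups in the authors' deposited table, where a failed estimate cannot be told from absence. The receptor Gfra1 was at 28.9 FPKM in the knockdown and 26.2 FPKM in the control. Markers of inhibitory neurons (12 of 13 records at 1 FPKM or more), of astrocytes and radial glia (16 of 16) and of microglia and macrophages (14 of 16) were present in these cultures. In bulk RNA of this kind, fewer cells of a type and less RNA per cell cannot be told apart.

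The targeted gene serves as the check of the labels. Hnrnpr lies on chromosome 4, 136310942 to 136345981 (build GRCm38, as all gene positions below unless another is named). Its level was 10.8 FPKM in the knockdown, against 27.2 FPKM in the control, in the authors' deposited table. The knockdown value was 39.9% of the control value, a log2 ratio of -1.32 with 0.1 FPKM added, as for all log2 ratios below. By this ratio Hnrnpr ranked 9 from the lowest among the tested genes. It did not pass the authors' test over all genes (unadjusted p = 0.0233, q = 0.310 in the authors' deposited table), and the standard error that this p implies is about 0.59 on the log2 scale.

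Most members differed little between the groups, and the spread of the ratios shrank with level. The median log2 ratio over members was 0.02, with quartiles of -0.38 and 0.39, and 6922 members were higher and 6571 lower in the knockdown. Ratios of at least 2-fold were found in 1228 members that were higher (9.1% of members) and in 1303 that were lower (9.66%). Their share was 46.5% among the 1935 members whose higher group lay between 1 and 2 FPKM, 13.9% among the 2942 between 5 and 10 FPKM, and 1.60% among the 749 between 50 and 200 FPKM. The authors tested 2768 records, all with at least 20.9 FPKM in the higher group, and the other members carry no test. A gene is called here where that test was completed with the authors' q under 0.05. This held for 27 genes, 0.975% of those tested, of which 10 rose (0.361%) and 17 fell (0.614%) in the knockdown. For some of these genes the authors' test statistic was small, as listed below with the axons. At the authors' unadjusted p under 0.05 there were 159 higher (5.74%) and 181 lower (6.54%), the background for counts at that p below.

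**Figure D1:**
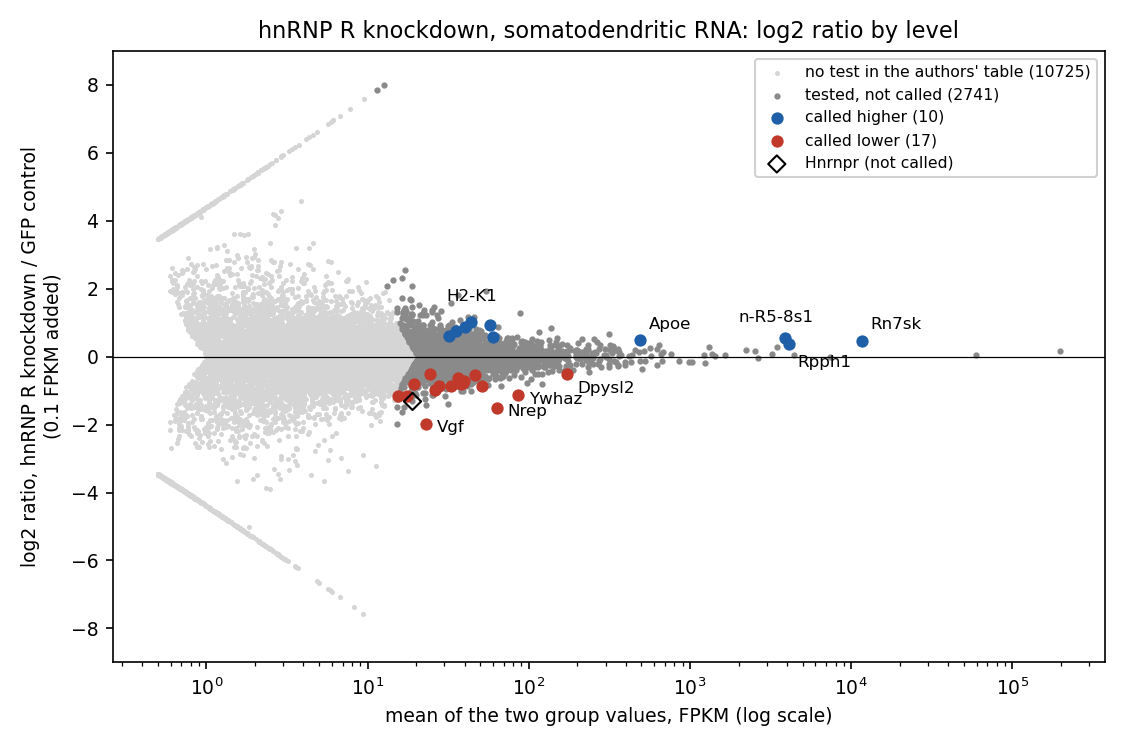
Each point is 1 of 13493 members, with the mean of the knockdown and control FPKM on the x axis (log scale) and the log2 ratio, hnRNP R knockdown over GFP control, on the y axis. The spread narrows to the right, the 10 genes called higher and the 17 called lower lie near its edges, and the diagonal rows are members listed at 0 in 1 group.

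The lowest ratio among the called genes belonged to a secreted peptide precursor. Vgf, the source of neurotrophin-induced peptides stored in dense-core vesicles (chromosome 5, 137030295 to 137033351), fell to 9.27 FPKM in the knockdown, against 36.8 FPKM in the control (a log2 ratio of -1.98 with q = 0.00865 in the authors' deposited table). That left 25.2% of the control level. Of 13 tested granin and secretory peptide genes Vgf was the called one, 6 were higher and 7 lower in the knockdown, and their median log2 ratio was -0.22. Over all 23 members of the list, tested or not, 12 were higher and 11 lower, with a median of 0.00. Chga, the granin of adrenal and neuronal dense-core vesicles, had 29.7 FPKM in the knockdown and 45.7 FPKM in the control (-0.62, q = 0.166 in the authors' deposited table). Its relative Chgb had 44.8 FPKM in the knockdown and 57.4 FPKM in the control (-0.36, q = 0.301 in the authors' deposited table). The chaperone of prohormone convertase 2, Scg5, had the opposite sign, with 169 FPKM in the knockdown and 127 FPKM in the control (0.42, q = 0.160 in the authors' deposited table).

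The axonal cytoskeleton list, written with earlier results of these data known, held 2 genes that fell, Nrep and Dpysl2. Nrep had been placed on it although no cytoskeletal role is given for it here. Nrep, a small protein of regenerating neurons (chromosome 18, 33437019 to 33464029), fell to 33.1 FPKM in the knockdown, against 94.6 FPKM in the control (a log2 ratio of -1.51 with q = 0.00865 in the authors' deposited table). Dpysl2, also called CRMP2, which binds tubulin and promotes axon growth, fell to 143 FPKM in the knockdown, against 203 FPKM in the control (-0.51, q = 0.00865 in the authors' deposited table). Of 32 tested genes on this list 9 were higher and 23 lower, with a median of -0.12 beside 0.02 for all tested genes. The neurofilament subunit Nefm had 56.5 FPKM in the knockdown and 82.0 FPKM in the control (-0.54, q = 0.166 in the authors' deposited table). The neuronal tubulin Tubb3 had 571 FPKM in the knockdown and 675 FPKM in the control (-0.24, q = 0.301 in the authors' deposited table). The spectrin Sptan1 lay on the other side of 0, with 137 FPKM in the knockdown and 101 FPKM in the control (0.44, q = 0.301 in the authors' deposited table).

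Among 26 tested genes of actin dynamics 1 fell, 10 were higher and 16 lower, and the median was -0.07. The gene that fell was Gmfb, a cofilin-related protein that acts on branched actin networks, at 10.8 FPKM in the knockdown and 24.3 FPKM in the control (a log2 ratio of -1.17 with q = 0.0301 in the authors' deposited table). The Arp2/3 subunit Arpc5 had 17.9 FPKM in the knockdown and 33.4 FPKM in the control (-0.90, q = 0.0923 in the authors' deposited table). The cofilin kinase Limk2 had 16.0 FPKM in the knockdown and 34.9 FPKM in the control (-1.12, q = 0.235 in the authors' deposited table). The 26 tested microtubule motor genes held no call, and by the authors' unadjusted p under 0.05 there was 1 higher and there were 2 lower among them. Kif21a, a plus-end kinesin, came nearest to the threshold, with 24.3 FPKM in the knockdown and 16.8 FPKM in the control (0.53, q = 0.0525 in the authors' deposited table).

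The list of the synaptic vesicle and of membrane fusion held calls in both directions. Of 37 tested, 3 fell and 1 rose, 12 were higher and 25 lower, and the median log2 ratio was -0.13. Sv2a, a glycoprotein of synaptic vesicles, fell to 23.3 FPKM in the knockdown, against 42.4 FPKM in the control (-0.86, q = 0.00865 in the authors' deposited table). Vamp1, a SNARE of the vesicle membrane, fell to 28.6 FPKM in the knockdown, against 49.3 FPKM in the control (-0.78, q = 0.00865 in the authors' deposited table). Napb, the beta-SNAP that recruits NSF to spent SNARE complexes, fell to 30.1 FPKM in the knockdown, against 49.4 FPKM in the control (-0.71, q = 0.00865 in the authors' deposited table). These 3 genes kept between 55.1% and 61.1% of their control level. Scamp5, a membrane protein of secretory carriers, rose instead, to 71.8 FPKM in the knockdown, against 47.7 FPKM in the control (0.59, q = 0.00865 in the authors' deposited table). Rab3a, the GTPase of vesicle docking, had 201 FPKM in the knockdown and 273.6 FPKM in the control (-0.44, q = 0.0692 in the authors' deposited table). The dynamin Dnm3 had 54.1 FPKM in the knockdown and 30.6 FPKM in the control (0.82, q = 0.112 in the authors' deposited table). Neither of these passed.

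On the plasma membrane side of the synapse each list held 1 call. Apba1, the Mint1 adaptor that binds Munc18 and the called one of 8 tested active zone genes, fell to 37.8 FPKM in the knockdown, against 54.7 FPKM in the control (a log2 ratio of -0.53 with q = 0.0146 in the authors' deposited table). Camk2g, the gamma subunit of calcium/calmodulin kinase II and the called one of 18 tested genes of dendrites and the postsynaptic side, fell to 28.8 FPKM in the knockdown, against 44.4 FPKM in the control (-0.62, q = 0.0198 in the authors' deposited table). The other kinase subunits did not pass. Camk2b had 42.5 FPKM in the knockdown and 53.6 FPKM in the control (-0.34, q = 0.544 in the authors' deposited table), and Camk2d had 41.9 FPKM in the knockdown and 31.5 FPKM in the control (0.41, q = 0.616 in the authors' deposited table).

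**Figure D2:**
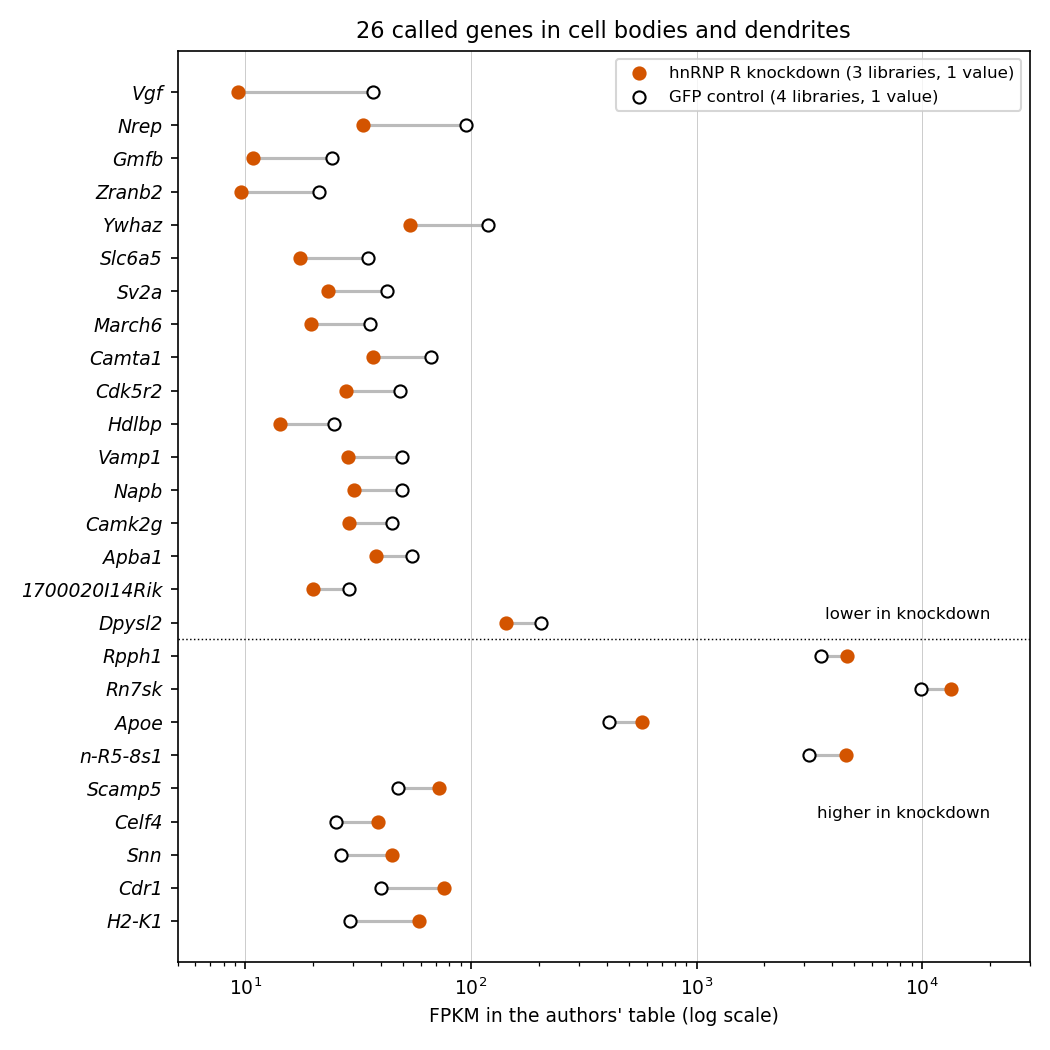
The plot shows 26 of the 27 called genes, with FPKM on the x axis (log scale), filled points for the hnRNP R knockdown and open points for the GFP control, each 1 value per group with no error available. Vgf has the widest gap, with 9.27 FPKM in the knockdown and 36.8 FPKM in the control, while the noncoding RNA n-R5-8s1 at the right differs by 1.45-fold.

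Other genes that fell were signalling proteins. Ywhaz, the zeta isoform of the 14-3-3 adaptors (chromosome 15, 36770770 to 36794547), fell to 53.9 FPKM in the knockdown, against 119 FPKM in the control (a log2 ratio of -1.14 with q = 0.00865 in the authors' deposited table). It was the called one of 6 tested 14-3-3 genes, and Ywhag, the next by p, had 282 FPKM in the knockdown and 345 FPKM in the control (-0.29, q = 0.211 in the authors' deposited table). Cdk5r2, the p39 activator of the neuronal kinase Cdk5, fell to 27.8 FPKM in the knockdown, against 48.4 FPKM in the control (-0.80, q = 0.00865 in the authors' deposited table). Camta1, a calmodulin-binding transcription activator, fell to 36.7 FPKM in the knockdown, against 66.3 FPKM in the control (-0.85, q = 0.00865 in the authors' deposited table). The records of 10 called genes span more than 1 annotated RefSeq gene. The number is 19 for Camta1, 5 for Vamp1, 3 for Celf4 and 2 each for Cdk5r2, Snn, Zranb2, March6, Hdlbp, Napb and Apba1. Each count includes the named gene itself, and the sources used here do not say whether counting used the strand.

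RNA-binding proteins held calls in both directions. Zranb2, a zinc finger protein of the spliceosome, fell to 9.52 FPKM in the knockdown, against 21.3 FPKM in the control (a log2 ratio of -1.15 with q = 0.0373 in the authors' deposited table). It was the called one of 26 tested spliceosome and SR genes, of which 12 were higher and 14 lower. Hdlbp, or vigilin, a protein of many KH domains that binds mRNAs, fell to 14.2 FPKM in the knockdown, against 24.8 FPKM in the control (-0.80, q = 0.0146 in the authors' deposited table). Celf4, a regulator of neuronal mRNA stability, rose to 38.6 FPKM in the knockdown, against 25.3 FPKM in the control (0.61, q = 0.0346 in the authors' deposited table). Both belong to a list of 24 tested neuronal RNA-binding proteins, of which 10 were higher and 14 lower. None of 21 tested hnRNP genes was called, 10 were higher and 11 lower, and by the authors' unadjusted p under 0.05 there were 2, Hnrnpr and Raly. The merged record Raly,a had 26.9 FPKM in the knockdown and 44.7 FPKM in the control (-0.73, q = 0.301 in the authors' deposited table).

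March6, a ubiquitin ligase of the endoplasmic reticulum known to act on enzymes of sterol synthesis, fell to 19.6 FPKM in the knockdown, against 35.5 FPKM in the control (a log2 ratio of -0.86 with q = 0.00865 in the authors' deposited table). It was the called one of 20 tested genes on the list of chaperones and the unfolded protein response, though itself a ubiquitin ligase and not a chaperone. Of these 20 genes 13 were higher and 7 lower. Cholesterol synthesis genes had a median of -0.28 over 14 tested genes, of which 3 were higher and 11 lower. None of them was called, and 5 were lower by the authors' unadjusted p under 0.05. Over all 24 members the median was -0.18, with 6 higher and 18 lower. The cyclase Lss had 12.5 FPKM in the knockdown and 26.6 FPKM in the control (-1.09, q = 0.239 in the authors' deposited table).

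Among the markers of inhibitory neurons, Slc6a5, the neuronal glycine transporter GlyT2, fell to 17.5 FPKM in the knockdown, against 34.8 FPKM in the control (a log2 ratio of -0.99 with q = 0.00865 in the authors' deposited table). Slc32a1, the vesicular transporter of glycine and GABA, was at 35.1 FPKM in the knockdown and 35.1 FPKM in the control (q = 0.997 in the authors' deposited table). The GABA-synthesising enzyme Gad1 had 56.6 FPKM in the knockdown and 41.4 FPKM in the control (0.45, q = 0.301 in the authors' deposited table). All 13 inhibitory marker records together summed to 310.2 FPKM in the knockdown and 290.4 FPKM in the control. The 16 marker records of astrocytes and radial glia summed to 761 FPKM in the knockdown and 758 FPKM in the control, with no call. The gap junction protein Gja1 came nearest among these, with 31.3 FPKM in the knockdown and 20.2 FPKM in the control (0.63, q = 0.0536 in the authors' deposited table).

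Apoe, the lipid carrier made mainly by glia in the nervous system, rose to 575 FPKM in the knockdown, against 408 FPKM in the control (a log2 ratio of 0.50 with q = 0.0373 in the authors' deposited table). Markers of oligodendrocytes and their precursors lay beside this, with 9 of 10 members higher in the knockdown and a median of 0.72. Their 15 records summed to 145 FPKM in the knockdown and 98.8 FPKM in the control. The 2 tested ones had a median of 0.33 and were not called, Olig1 (0.34, q = 0.329) and Olig2 (0.32, q = 0.604 in the authors' deposited table). Opalin, a gene of mature oligodendrocytes, was listed at 0 in both groups in the authors' deposited table. Of 14 microglia and macrophage members 5 were higher and 9 lower, with a median of -0.35. Records of that list, none of them tested, summed to 95.7 FPKM in the knockdown and 107 FPKM in the control. Fibroblast and mural records summed to 253.6 FPKM in the knockdown and 305 FPKM in the control. Schwann cell records summed to 21.5 FPKM in the knockdown and 15.4 FPKM in the control. Endothelial records, of which 7 of 12 were at 0 in both groups, summed to 52.2 FPKM in the knockdown and 52.1 FPKM in the control. Most of both sums came from the merged record Ak1,Eng, with 49.8 FPKM in the knockdown and 49.6 FPKM in the control. Its value cannot be assigned to the endothelial marker Eng alone. Excitatory interneuron records summed to 83.5 FPKM in the knockdown and 85.1 FPKM in the control. The part of such cells in the changes of Apoe, Slc6a5 and H2-K1 was not tested.

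H2-K1, a heavy chain of the major histocompatibility complex class I (chromosome 17, 33996017 to 34000333), had the highest ratio among the called genes. It rose to 59.02 FPKM in the knockdown, against 29.2 FPKM in the control (2.02-fold, a log2 ratio of 1.02 with q = 0.0146 in the authors' deposited table). Class I molecules present peptides at the cell surface. All 5 tested members of the class I and interferon list were higher in the knockdown, with a median of 0.39. H2-D1, the other classical heavy chain, had 81.0 FPKM in the knockdown and 61.9 FPKM in the control (0.39, q = 0.546 in the authors' deposited table). The merged record Tapbp,Zbtb22, which holds the peptide-loading factor Tapbp, had 37.7 FPKM in the knockdown and 15.9 FPKM in the control (1.24, q = 0.154 in the authors' deposited table). The light chain B2m barely differed, with 34.7 FPKM in the knockdown and 33.3 FPKM in the control (0.06, q = 0.957 in the authors' deposited table). Over all 19 members of the list, tested or not, 14 were higher and the median was 0.11. H2-K1 and H2-D1 are near copies, and the sources used here do not say how reads matching both were counted.

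The bases before the starts of both heavy chain genes are shown because they share elements known from class I promoters. They are RefSeq sequences of build GRCm38.p6, 250 bases each, at chr17:34000348-34000597 on the minus strand for H2-K1 and at chr17:35262844-35263093 on the plus strand for H2-D1. Capitals mark GGGATTCC, the core of a kappa B site, and TTTCACTT, the core of an interferon response element, each searched on both strands and without overlap between them.
H2-K1: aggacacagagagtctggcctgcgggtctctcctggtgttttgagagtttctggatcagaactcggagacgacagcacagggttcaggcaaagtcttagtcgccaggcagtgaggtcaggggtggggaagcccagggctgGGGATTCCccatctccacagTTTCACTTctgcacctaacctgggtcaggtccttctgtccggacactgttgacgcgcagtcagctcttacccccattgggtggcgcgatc
H2-D1: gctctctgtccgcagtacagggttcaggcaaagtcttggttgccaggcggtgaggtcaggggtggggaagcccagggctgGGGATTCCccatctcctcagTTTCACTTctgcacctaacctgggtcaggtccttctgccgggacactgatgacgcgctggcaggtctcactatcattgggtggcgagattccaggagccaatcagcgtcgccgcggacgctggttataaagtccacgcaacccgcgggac
The longest run of bases shared by these windows is 47. GGGATTCC stood in the windows of 1.04% of 27025 genes and TTTCACTT in those of 1.62%. Of the 27 called genes 15 had a window in this table, and of these H2-K1 alone held either motif. A match is a description of these letters and was not tied to the values by a test.

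Cdr1, a gene on the X chromosome whose antisense transcript is known for its many miR-7 sites, rose to 75.7 FPKM in the knockdown, against 40.0 FPKM in the control (a log2 ratio of 0.92 with q = 0.00865 in the authors' deposited table). The record lies at X, 61183246 to 61185558. Reads of Cdr1 and of its antisense partner cannot be told apart without strand, and no value is given for the circular RNA. The neighbouring record C230004F18Rik (X, 61116386 to 61175991) had 8.90 FPKM in the knockdown and 5.06 FPKM in the control and was not tested in the authors' deposited table. Another noncoding RNA known to pair with miR-7 is Cyrano, for which the record 1700020I14Rik is named in RefSeq as Oip5os1 (chromosome 2, 119594297 to 119607502). It fell to 20.0 FPKM in the knockdown, against 28.7 FPKM in the control (-0.52, q = 0.0410 in the authors' deposited table). The records thus changed in opposite directions, and the level of miR-7 itself was not measured in these libraries.

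The mature forms of miR-7 and the bases before the Cdr1 start are shown to make the sites visible. The RefSeq sequences (GRCm38.p6) are miR-7a-5p at chr7:78888295-78888317 on the plus strand, miR-7b-5p at chr17:56243017-56243040 on the plus strand, and 250 bases at chrX:61185559-61185808 on the minus strand, the strand of Cdr1. Capitals mark the seed, bases 2 to 8 of both miRNAs, and the same 7 letters in the DNA.
miR-7a-5p: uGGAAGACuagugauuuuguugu
miR-7b-5p: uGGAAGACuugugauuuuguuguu
Cdr1: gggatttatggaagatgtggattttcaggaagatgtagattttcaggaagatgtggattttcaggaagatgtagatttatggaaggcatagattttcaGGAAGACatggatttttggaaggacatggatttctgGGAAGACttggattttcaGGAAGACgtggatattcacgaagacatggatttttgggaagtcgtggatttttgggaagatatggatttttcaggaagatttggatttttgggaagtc
Both miRNAs share the seed GGAAGAC, so a transcript of the strand opposite to Cdr1 carries its complement. The window held the seed letters at 3 places, a number reached by 2 of 32851 windows, and 2.18% of all windows held them at least once on the strand of their gene. The complement, GTCTTCC, was at 0 places on the strand of Cdr1.

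Among small structured RNAs 3 rose. Rn7sk, the gene of 7SK (chromosome 9, 78175303 to 78175633), rose to 13493 FPKM in the knockdown, against 9892 FPKM in the control (a log2 ratio of 0.45 with q = 0.00865 in the authors' deposited table). Rpph1, the RNA of RNase P, rose to 4643 FPKM in the knockdown, against 3566 FPKM in the control (0.38, q = 0.0198 in the authors' deposited table). The record n-R5-8s1, a copy of 5.8S ribosomal RNA, rose to 4579 FPKM in the knockdown, against 3153 FPKM in the control (0.54, q = 0.00865 in the authors' deposited table). Of 11 tested records on the list of small structured RNAs 10 were higher, with a median of 0.29, and 5 were higher by the authors' unadjusted p under 0.05. Over all 15 members 10 were higher and 5 lower, with a lower quartile of -1.58, since the low members that carry no test lay on the lower side. Of these Rprl1 had 1.91 FPKM in the knockdown and 10.1 FPKM in the control, and Rnu11, Rnu12 and Terc were listed at 0 in the knockdown, in the authors' deposited table. The Y RNAs given here were not called and were not tested against one another. Rny3 had 3798 FPKM in the knockdown and 3111 FPKM in the control (0.29, q = 0.301 in the authors' deposited table), whereas Rny1 had 1441 FPKM in the knockdown and 1437 FPKM in the control (0.00, q = 0.996 in the authors' deposited table). Rmrp, the RNA of RNase MRP, had 2376 FPKM in the knockdown and 2067 FPKM in the control (0.20, q = 0.446 in the authors' deposited table). These RNAs have copies in the genome that can share reads, so their values are uncertain. The other proteins of the 7SK particle and P-TEFb held no call. Of 6 tested members, Rn7sk among them, 3 were higher, with a median of 0.08. Over all 17 members 7 were higher and 10 lower, with a median of -0.15. Cdk9, without a test, had 4.98 FPKM in the knockdown and 19.0 FPKM in the control (-1.91). Larp7, also without a test, had 1.27 FPKM in the knockdown and 4.65 FPKM in the control (-1.80), in the authors' deposited table. Aff4, a scaffold of the super elongation complex, had 50.6 FPKM in the knockdown and 36.3 FPKM in the control (0.48, q = 0.637 in the authors' deposited table).

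The remaining gene that rose was Snn, or stannin, a small membrane protein, with 44.6 FPKM in the knockdown and 26.6 FPKM in the control (a log2 ratio of 0.75 with q = 0.0252 in the authors' deposited table). Lists of basic cell functions held no call. Of 35 tested cytosolic ribosomal protein genes 25 were higher, with a median of 0.14, and 5 were higher by the authors' unadjusted p under 0.05. Rps3, a protein of the small subunit, had 177 FPKM in the knockdown and 97.6 FPKM in the control (0.86, q = 0.268 in the authors' deposited table). Of 57 tested respiratory chain genes 22 were higher, with a median of -0.06, and by unadjusted p under 0.05 there were 3 higher and 4 lower. Of 27 tested proteasome genes 13 were higher (median -0.02, with 2 lower at unadjusted p under 0.05), and of 26 tested translation factors 16 were (0.03, with 1 higher and 1 lower). Genes of motoneuron disease lay at -0.14 over 17 tested, with 6 higher, no call and 2 lower at unadjusted p under 0.05, while over all 30 members 15 were higher and 15 lower and the median was 0.00. The dynactin subunit Dctn1 was the first of these by p, with 31.9 FPKM in the knockdown and 51.5 FPKM in the control (-0.69, q = 0.235 in the authors' deposited table). The SMN complex had 3 tested records, all higher and none called, while over all 9 members 6 were higher and 3 lower. Among the tested ones was the merged record Gemin4,Glod4,Vps53, whose value cannot be assigned to Gemin4 alone. Smn1, also tested, had 26.8 FPKM in the knockdown and 24.5 FPKM in the control (0.13, q = 0.934 in the authors' deposited table). Of 17 tested histone genes 9 were higher (median 0.01, with 1 higher at unadjusted p under 0.05), while all 64 histone members had a median of -0.29. No immediate early gene was tested, and 2 p53 targets were, of which Cdkn1a had 70.9 FPKM in the knockdown and 51.1 FPKM in the control (0.47, q = 0.209 in the authors' deposited table).

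**Figure D3:**
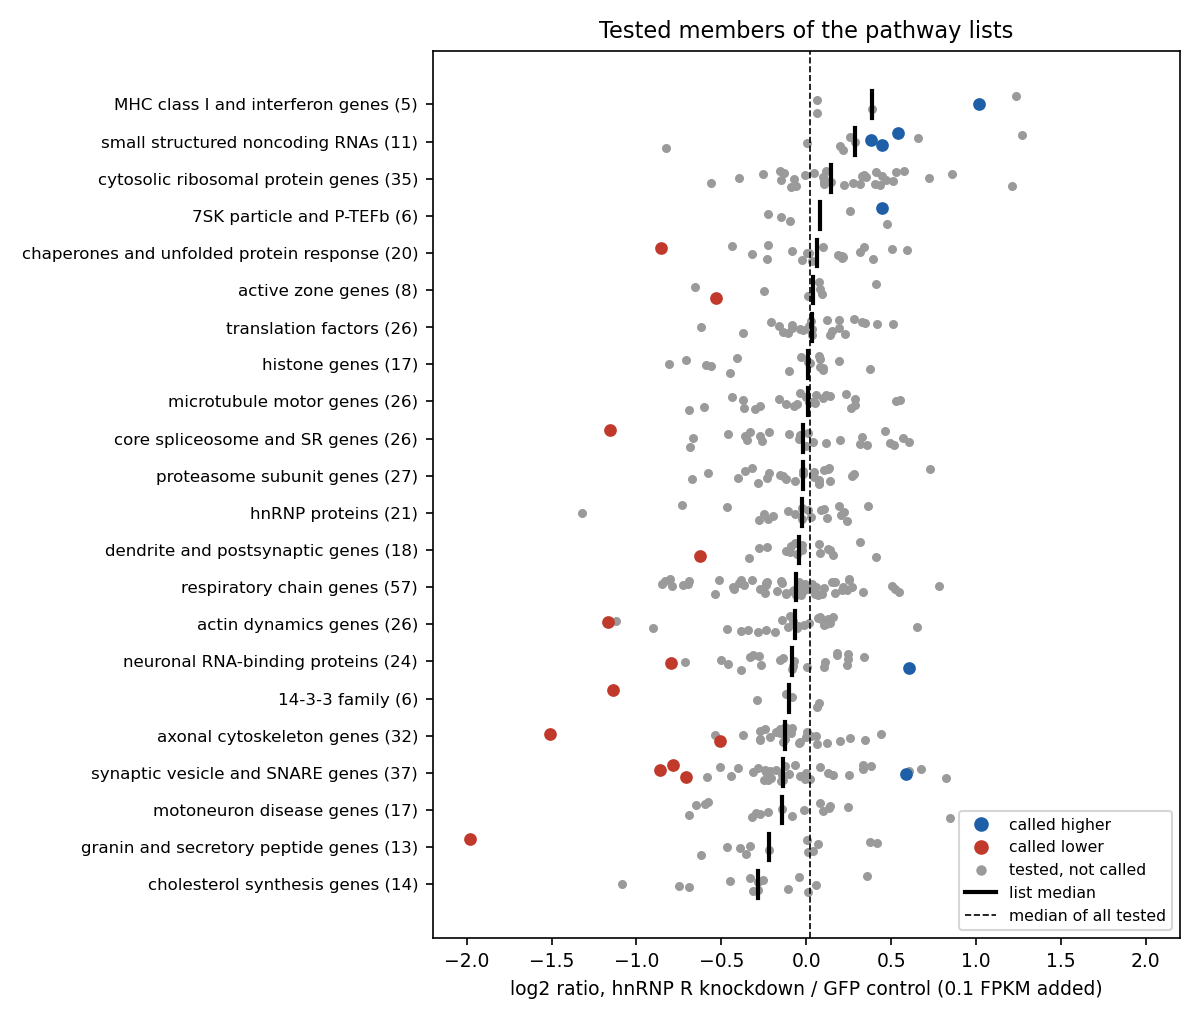
Each point is a tested member of a pathway list with at least 5 tested members (number in parentheses), placed by its log2 ratio, hnRNP R knockdown over GFP control, with called genes in colour, a bar at the list's median and a dashed line at the median of all tested genes. Medians run between -0.28 for cholesterol synthesis and 0.39 for class I and interferon genes, and all 5 tested genes of that last list lie above 0.

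Very large ratios occurred in short RNAs and were not called. Snord104 was listed at 0 in the control and at 25.1 FPKM in the knockdown (q = 0.568), and Gm22980 at 0 in the control and at 23.0 FPKM in the knockdown (q = 0.692), in the authors' deposited table. Of 85 members that RefSeq names as snoRNAs 48 were higher, and of the 18 that were tested all were higher in the knockdown. A snoRNA reached the test only where its higher group passed the level named above, so this is no count over all of them. Among members without a test at 5 FPKM or more, 27 were listed at 0 in the knockdown, Gm23301 (18.8 FPKM in the control) and Snora68 (16.4 FPKM in the control) among them, and 21 at 0 in the control, such as Snord71 (18.9 FPKM in the knockdown) and Gm23787 (15.5 FPKM in the knockdown), in the authors' deposited table. Among tested genes of other kinds that were not called, Cystm1 had the lowest ratio, with 6.10 FPKM in the knockdown and 24.2 FPKM in the control (a log2 ratio of -1.97 with q = 0.158 in the authors' deposited table). It was followed by the lipid transporter Mfsd2a, with 7.92 FPKM in the knockdown and 25.0 FPKM in the control (-1.64, q = 0.185 in the authors' deposited table).

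The log2 ratio varied little with the length of the locus. Tested records under 5000 bases had a median of 0.05 (331 records), those between 50000 and 100000 bases a median of 0.00 (466) and those over 400000 bases a median of 0.08 (88). Of the 10 genes that rose, 6 had loci under 5000 bases, against 1 of the 17 that fell. Among all 2768 tested records, 331 were that short. The 6 include all the small structured RNAs that rose, named above. Whether length and direction go together was not tested. By RefSeq type, protein-coding genes with a test had a median of 0.01 (2484 genes, 7 rose and 16 fell).

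The same genes were then read in axons of the same knockdown, whose libraries (3 of the knockdown, 4 of the GFP control) are separate from those above. All 17 genes that fell in cell bodies and dendrites also had a lower value in knockdown axons than in control axons, and 9 of the 10 that rose had a higher value there. Of all tested genes on the lower side 48.4% were also lower in axons, and of those on the higher side 56.3% were also higher. The authors' axonal test was made for 12 of the 27 and called none of them, among 2 calls in 1749 genes (0.114%), 1 higher (0.0572%) and 1 lower (0.0572%). The labels do not say whether both compartments were taken from the same chambers. Vgf was at 12.1 FPKM in knockdown axons and 39.8 FPKM in control axons (a log2 ratio of -1.71 with q = 0.187 in the authors' deposited table of the axons). Apoe was at 183 FPKM in knockdown axons and 61.6 FPKM in control axons (1.57, q = 0.221 in the authors' deposited table of the axons). Celf4 was the exception in direction, with 8.34 FPKM in knockdown axons and 9.12 FPKM in control axons and no test in the authors' deposited table of the axons.

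The difference between the compartments was tested for each gene tested in both, with an approximate z test whose standard errors come from the authors' p. Of 1505 genes 0 passed (0%) at a Benjamini-Hochberg adjusted p under 0.05, and 104 had an unadjusted p under 0.05. None of the 12 called genes tested in both was among these. For Apoe the somatodendritic log2 ratio was lower than the axonal one by a difference of -1.08, with a 95% interval of -2.17 to 0.01. For Vgf the difference was -0.27, with an interval of -1.66 to 1.12. For Ywhaz it was -0.77, with an interval of -1.74 to 0.20. The authors' somatodendritic test of Ywhaz gave a statistic of -2.03 beside p = 5e-05. A standard error taken from that statistic would be larger than the one used here. Intervals of this width leave room for effects that differ by 2-fold or more between the compartments. Some other called genes had a somatodendritic statistic smaller in size than that of Ywhaz. These were H2-K1 (1.60), Zranb2 (-1.65), Camta1 (-1.75), 1700020I14Rik (-1.81), Gmfb (-1.82), Apoe (1.87) and Rpph1 (1.99). The remaining called genes had a larger one, the largest in size being -4.55 for Nrep. A call follows the authors' q and takes no account of this statistic.

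**Figure D4:**
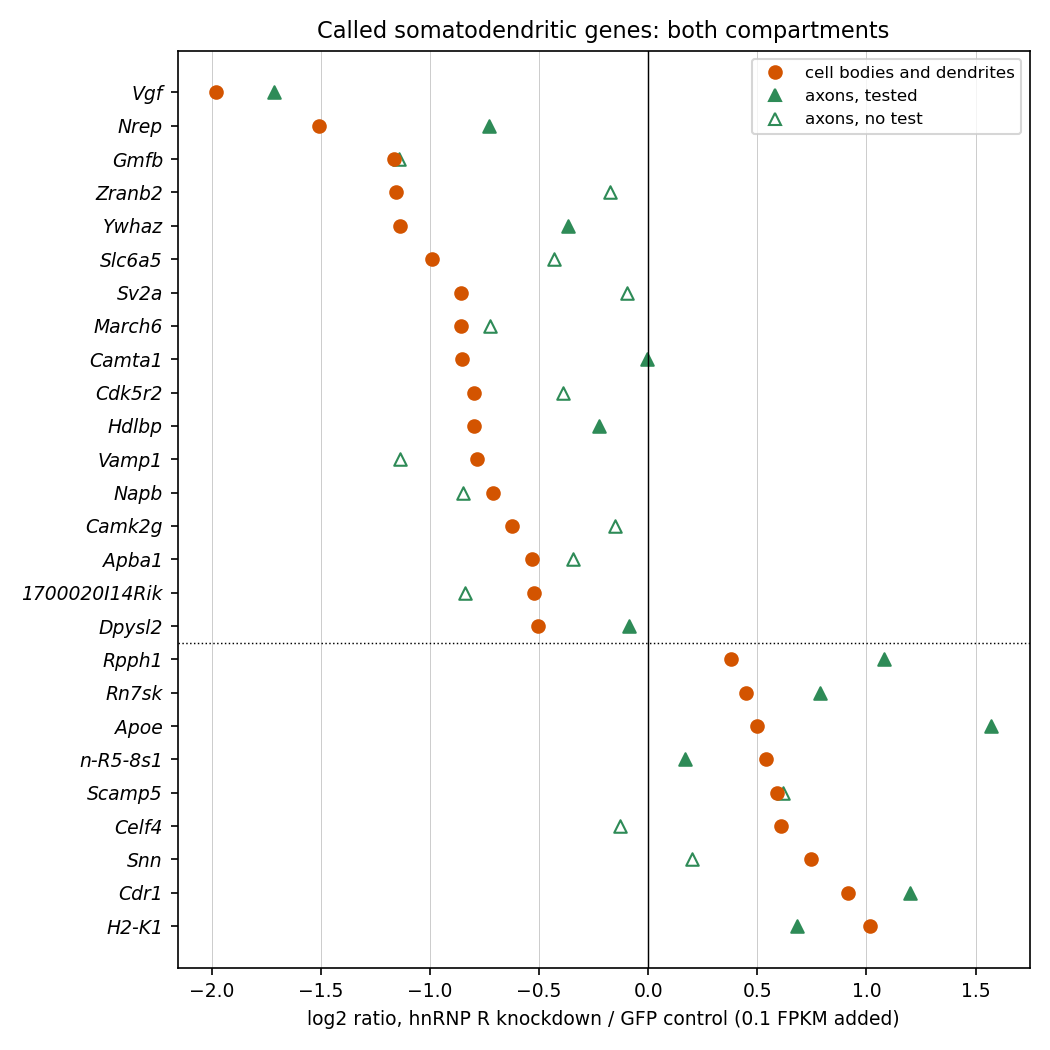
Log2 ratios, hnRNP R knockdown over GFP control, of 26 of the 27 genes called in cell bodies and dendrites (circles), beside their ratios in axons (triangles, open where the authors made no test). All 17 genes that fell have an axonal ratio below 0, with Camta1 at -0.01, and of the 9 shown that rose only Celf4 has one.

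The 7SK knockdown of the somatodendritic side was compared by the authors with the same GFP_sd libraries, scaled otherwise, so the values of both comparisons are not independent and are given side by side only. Of 1954 genes tested there 2.51% were called, 1.43% higher and 1.07% lower. H2-K1 was at 54.1 FPKM in that knockdown and 26.8 FPKM in the control (a log2 ratio of 1.01 with q = 0.0251), and Napb at 30.2 FPKM in that knockdown and 45.4 FPKM in the control (-0.59, q = 0.0112), in the authors' deposited table of 7SK. Rpph1 was at 4439.9 FPKM in that knockdown and 3282 FPKM in the control (0.44, q = 0.00407), and n-R5-8s1 at 19234.5 FPKM in that knockdown and 2900.5 FPKM in the control (2.73, q = 0.00407), in the authors' deposited table of 7SK. Vgf was at 33.9 FPKM in that knockdown and 33.9 FPKM in the control (q = 0.990), and Nrep at 89.7 FPKM in that knockdown and 87.0 FPKM in the control (0.04, q = 0.915), in the authors' deposited table of 7SK. Rn7sk, the target there, was at 6370.2 FPKM in that knockdown and 9104 FPKM in the control (-0.52, q = 0.00407 in the authors' deposited table of 7SK).

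The hnRNP R iCLIP libraries were then read for the RNAs that changed. iCLIP links a protein to its RNA with ultraviolet light and counts cDNAs that stop at the linked base. Unfractionated motoneurons gave 359005 cDNAs in replicate 1 and 319381 in replicate 2, of which 88.1% and 86.5% lay in introns, and a control IgG library of NSC34 cells, a motoneuron-like line, gave 36280. Rn7sk had 4526 and 3239 cDNAs in replicates 1 and 2 and 46 in the IgG library. Genes that fell had a median of 47 cDNAs over both replicates (quartiles 25 and 176, 16 of 17 matched by name). Genes that rose had a median of 15 (quartiles 4 and 197, 8 of 10 matched), and all tested genes a median of 22 (quartiles 6 and 71, 2501 matched). The ranges between quartiles overlap, and these raw counts are not set against the IgG library. Vgf, with the lowest ratio among the called genes, had 2 cDNAs in replicate 1, 0 in replicate 2 and 4 in the IgG library, and H2-K1 had 0 in replicate 1 and 1 in replicate 2. Camta1 had 367 and 307 cDNAs in replicates 1 and 2 and 37 in the IgG library, and Celf4, which rose, 404 and 316 and, in the IgG library, 41. Scaled to the depth of each library in CPM, Camta1 stood at 1022 and 961 with the hnRNP R antibody and at 1019.9 with IgG, and Celf4 at 1125 and 989 with the antibody and 1130.1 with IgG. For both genes the scaled counts with the antibody lay near that of the IgG library and thus do not show crosslinking above it. Rn7sk stood at 12607 and 10142 CPM with the antibody and at 1268 with IgG. cDNA counts follow the length of introns and the level of the RNA, and genes were not tested against one another.

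Among the genes that fell with at least 10 cDNAs, Zranb2, Gmfb, Nrep, Napb and Sv2a had most of their cDNAs outside introns. Napb had 21.9% of 32 cDNAs in introns and 46.9% in the 3' UTR, and Sv2a 26.3% and 57.9% of 19. Dpysl2, March6 and Ywhaz had 55.7%, 58.5% and 74.6% of theirs in introns. Zranb2 had 41 of 58 cDNAs in its coding sequence in replicate 1 (70.7%, exact 95% binomial interval 57.3% to 81.9%) and 52 of 79 in replicate 2 (65.8%, 54.3% to 76.1%), against 3.03% and 3.42% of all cDNAs in these libraries. By that share it ranked 4 among 799 tested genes with at least 50 cDNAs. Gmfb had 21 of 25 cDNAs in its 3' UTR in replicate 1 (84.0%, 63.9% to 95.5%) and 19 of 19 in replicate 2 (100%, 82.4% to 100%), against 5.50% and 6.85% of all cDNAs. Nrep had 40 of 66 in its 3' UTR in replicate 1 (60.6%, 47.8% to 72.4%) and 51 of 87 in replicate 2 (58.6%, 47.6% to 69.1%), and ranked 30 of the 799 by that share. Dpysl2 had 54 of 124 there in replicate 1 (43.5%, 34.7% to 52.7%) and 52 of 122 in replicate 2 (42.6%, 33.7% to 51.9%), and ranked 64. March6 ranked 84 and Ywhaz 134, with 36.5% and 23.7% of their cDNAs in the 3' UTR over both replicates, while the median over the 799 genes was 4.90%. Of other genes that fell, Apba1 had 5.42% of its 295 cDNAs and Camta1 13.5% of its 674 in the 3' UTR, and of Celf4, which rose, 97.6% of 720 were intronic. The intervals cover counting error only. The IgG library held 2 cDNAs of Zranb2, 1 of Gmfb and 2 of Nrep, all of them intronic, while 4 of 8 of March6, 3 of 7 of Ywhaz and 1 of 18 of Dpysl2 lay in the 3' UTR there. For March6 and Ywhaz the 3' UTR share in the IgG library, 50% and 42.9% of few cDNAs, was thus no lower than with the hnRNP R antibody. In CPM, Zranb2 stood at 162 and 247 with the antibody and 55.1 with IgG, Gmfb at 69.6 and 59.5 with the antibody and 27.6 with IgG, and Nrep at 184 and 272 with the antibody and 55.1 with IgG. Dpysl2 stood at 345 and 382 CPM with the antibody, below the 496 with IgG. March6 stood at 256 CPM in replicate 1 and 209.8 in replicate 2 with the antibody, on either side of the 221 with IgG. The IgG library came from another cell type and is 1 library, and these counts were not tested against it.

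**Figure D5:**
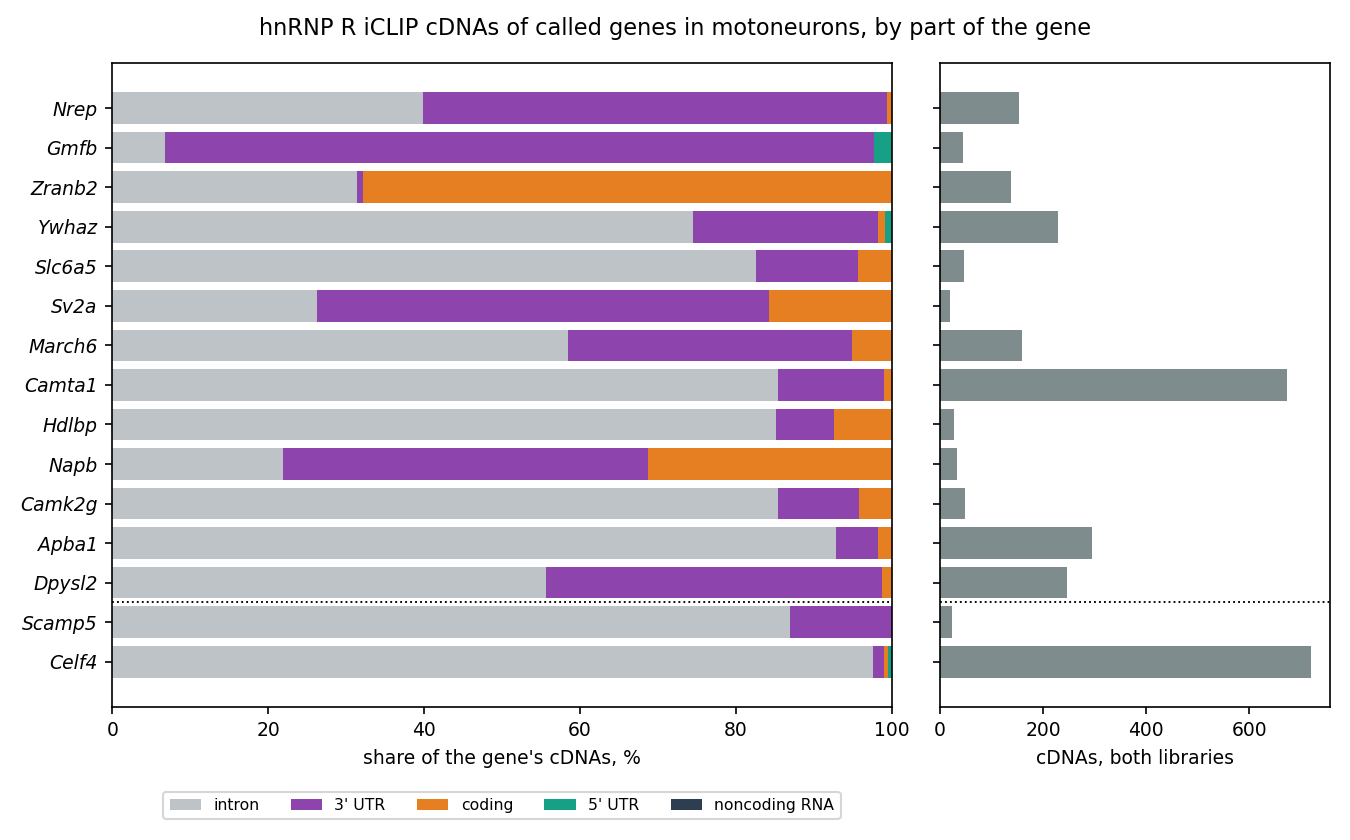
Called genes with at least 10 hnRNP R iCLIP cDNAs in the motoneuron libraries, without Rn7sk and 1 other gene that rose, ordered by log2 ratio from the lowest at the top, with genes that fell above the dotted line. Left, the share of each gene's cDNAs by part of the gene in percent, and right, the number of cDNAs in both replicates, where Zranb2 stands apart by 67.9% in its coding sequence and Gmfb by 90.9% in its 3' UTR.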

How the data were processed

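RNA-seq was deposited as 1 table of gene records (GRCm38) for each knockdown and compartment. Each FPKM value in them is the authors' estimate for a whole group, and the submitters' processing notes list Cufflinks 2.2.1 and FastQC 0.10.1. The log2 fold changes, the test statistic (a score), the p-value and the q-value of each record are the authors' own, deposited in the same tables, with a smallest p of 5e-05. The sources used here do not give aligner, annotation or test settings. Control values of the hnRNP R table were 1.09 times those of the 7SK table (median over records). The labels' descriptions cross-list some tables between groups, so groups were read from the column names of the tables and the targeted genes were checked.

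From these values log2 ratios were recomputed with 0.1 FPKM added, over records of at least 1 FPKM in either group. A call is a completed test with q under 0.05. Lists (25 of pathways, 9 of markers) and members were chosen with earlier results of these data known. Named genes are all calls but 1, which is not reported here, Hnrnpr, up to 3 further tested genes per list by smallest p (not all of them printed), and the extremes of uncalled and untested records. Outside this rule Gm26924, the markers Chat, Mnx1 and Opalin, Rny1, Rprl1, Rnu11, Rnu12, Terc, Cdk9, Larp7 and C230004F18Rik were named after their values were seen. The genes shown with iCLIP shares by part of gene were picked among the calls in the same way. Motif letters were chosen with the printed promoters known. Low values recur at common ratios (1.69 in 27 of 554 records with control values above 0 and under 0.3 FPKM), but the depth of single libraries could not be recovered from group values.

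The compartment difference used a z test on the authors' log2 fold changes. It was tried on data simulated with normal errors, which cannot show whether the authors' p gives a valid standard error. The iCLIP count of cDNAs per gene and part of gene was deposited per library on mm9 with Ensembl 59, per the file headers, and 1290 further value columns were not used. Genes were joined by name, identifier or synonym, and no coordinates were moved between builds. Tools were Python 3.11.15, pandas 2.3.3, numpy 2.4.6, scipy 1.17.1 and matplotlib 3.10.9. Alternatives covered the pseudocount, the minimum level, scaling and the threshold.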

Additional observations from a re-analysis of the deposited data

How the results depend on the processing

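The number of called genes depends on the threshold: at the authors' q under 0.01 there were 5 higher and 11 lower, at q under 0.1 there were 21 and 26, and at an unadjusted p under 0.05 there were 159 and 181. Leaving out merged records changed neither count. Members past 2-fold numbered 750 higher and 867 lower with a pseudocount of 1 FPKM, 2059 and 2944 with no minimum level, and 380 and 348 with a minimum of 5 FPKM, since low records enter or leave by construction. With a pseudocount of 0.01 FPKM, rescaling without the 10 records of highest FPKM, or centring, these counts stayed within 1.5 times, and the median log2 ratio over members lay between -0.02 and 0.03 in every alternative. The 28 log2 ratios of the called genes and Hnrnpr kept their sign with a pseudocount of 1 FPKM and after rescaling. List medians changed sign for 4 of 34 lists after rescaling, which shifts the log2 ratio by -0.02, for 4 with a minimum of 5 FPKM and for 8 of 31 over tested records only, all compared with the median over members. For the compartment difference, standard errors from the authors' test statistic also gave 0 genes. No paired analysis was possible because the tables hold 1 value per group and the columns carry no replicate numbers, and for the same reason no library could be left out. Genes under about 20.9 FPKM carry no test, and the depth of the libraries is unknown.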
